A study of Aspergillus luchuensis with 6 samples.

Results

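The 157 transcripts described here were already expressed in koji of wild-type *Aspergillus luchuensis* and stood at least 2 times higher in koji of its mutant U1. They were taken from the 11488 locus tags counted in 6 RNA sequencing libraries, 3 of the wild type and 3 of U1. A tag entered when its wild-type mean was 5 CPM or more (counts divided by the library total, in units of 1000000), its U1 mean was at least 2 times that value, and every U1 library lay above every wild-type library. Tags AKAW_05980 to AKAW_06045, a stretch around genes read almost only in U1, were left out; 1 tag of that stretch met the other criteria. Of the 7852 remaining tags at the wild-type minimum, 160 reached the ratio and 157 of these also had libraries that did not overlap.

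*Aspergillus luchuensis* is a black koji mould, a filamentous fungus that brewers seed onto steamed rice before fermenting Japanese distilled spirits. In koji, the mycelium secretes alpha-amylase, which cuts starch chains internally, and glucoamylase, which releases glucose from their ends, and it acidifies the mash with citric acid. In aspergilli the genes of these enzymes are switched on by the regulator AmyR when starch or maltose is present, and are held down by the carbon catabolite repressor CreA when glucose is plentiful. The wild type was strain RIB2601. U1 carries the same strain background; the labels call it a mutant with strong starch degradation, and the series title gives ion beam mutagenesis as its origin. Each library was made from RNA of frozen rice koji. The labels give no culture age, no mutated gene, and no word on whether replicate libraries are separate cultures, so each p-value reflects library-to-library variation that could be purely technical. The count files carry locus tags with no gene names, and 0 of the 11488 tags occur among the 12941 genes of the reference table, so no tag can be called an amylase, a transporter or a regulator here, and no sequence is shown. The lists of amylolytic, transport, protease, secretion, organic acid and conidiation genes therefore had no members.

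Library totals ran from 4025119 to 5064126 counts in the wild type and from 4427719 to 8420828 in U1. In the fit of U1 against wild type over all tested tags, 11.4% of 8790 tags were called higher and 13.1% lower (edgeR quasi-likelihood test, adjusted p under 0.05). Of the 157 members, 153 were among those called higher and 4 were not called. The members were chosen by the same contrast, so nothing is read from that count. Among all expressed tags, 26.2% had every U1 library above every wild-type library, and 2.04% had the required ratio. In bulk koji RNA, a change in the number of cells that express a gene and a change in its RNA per cell cannot be told apart.

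Most members were weakly to moderately expressed in the wild type and lay near the middle of the expressed range in U1. Their wild-type mean levels had a median of 15.7 CPM and ran from 5.05 to 517 CPM, against a median of 52.1 CPM over all 7852 expressed tags. Their U1 mean levels had a median of 49.3 CPM and ran from 10.3 to 1112 CPM, against a median of 55.0 CPM over all expressed tags. In U1, 41 members reached 100 CPM, and 15 did so in the wild type. The level of 1000 CPM was reached by 2 members in U1 and by 0 in the wild type. CPM is not corrected for transcript length, so these are levels of reads and do not rank genes by molecules.

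The ratio of U1 to wild-type mean level had a median of 2.56 and a highest value of 12.4. It lay under 2.5 in 74 members, from 2.5 to under 3 in 31, from 3 to under 4 in 27, from 4 to under 5 in 17, and at 5 or more in 8. The share of expressed tags that were members differed between bands of wild-type level. The wild-type mean that sets the band is also the divisor in the ratio, so these shares are not independent of the rule. How much of the difference comes from this was not tested. Members made up 7.48% of the 762 tags with a wild-type mean of 5 to under 10 CPM, 2.98% of those from 10 to under 20 CPM, 1.90% from 20 to under 50 CPM, 0.912% from 50 to under 100 CPM and 0.660% of the 2273 tags at 100 CPM or more. The mirror set, with U1 at least 2 times lower and libraries not overlapping, held 185 tags, which made up 3.94%, 3.18%, 2.09%, 1.71% and 2.20% of the same bands. The median coefficient of variation over the U1 libraries (CV, the SD as a percent of the mean) of all tags in a band went from 15.9% in the lowest to 6.52% in the highest, and the part of this spread in the shares was not tested. The lowest count of any of the 157 members in any library was 16, a floor largely set by the wild-type minimum of the rule.

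**Figure D1:**
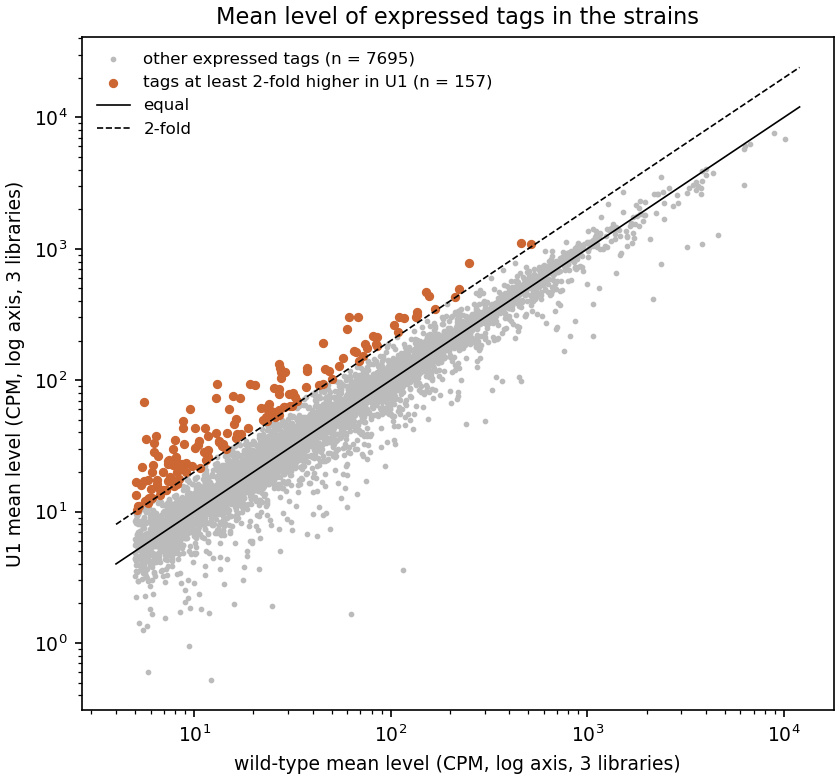
Mean level in U1 against mean level in wild type, both in CPM on log axes, for the 7852 expressed tags, each point 1 tag and each mean over 3 libraries. The 157 members, in orange, lie on or above the 2-fold line by the way they were chosen and are densest at low wild-type levels.

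The tag with the largest ratio was AKAW_06436. It stood at 6.52, 5.09 and 4.97 CPM in wild-type replicates 1 to 3 and at 69.4, 80.3 and 56.5 CPM in U1 replicates 1 to 3. The means were 5.52 ± 0.861 and 68.7 ± 11.9 CPM (SD, n = 3 each), a ratio of 12.4. Its lowest U1 library was 8.66 times its highest wild-type library, the widest gap among the members. By level it moved from rank 7780 among all tags in the wild type to rank 3382 in U1.

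AKAW_06094 had the next largest ratio and the lowest wild-type CV of any member, 1.12%. Counting of reads alone gives a wild-type CV of 2.08% or more in every member, so that value is not read as steadiness. AKAW_06094 gave 13.2, 13.0 and 13.2 CPM in the wild type and 97.5, 95.0 and 86.5 CPM in U1. The means were 13.1 ± 0.147 and 93.0 ± 5.77 CPM (SD, n = 3 each), a ratio of 7.09. Every U1 library was at least 6.54 times every wild-type library. AKAW_06988 gave 10.1, 10.9 and 7.45 CPM in the wild type and 66.7, 57.8 and 55.1 CPM in U1, a ratio of 6.33. AKAW_03438 gave 6.91, 6.71 and 5.47 CPM against 35.0, 39.8 and 38.4 CPM, a ratio of 5.93. AKAW_06519 gave 10.9, 12.3 and 15.4 CPM against 66.7, 86.8 and 66.4 CPM, a ratio of 5.71. In these 3 tags the U1 libraries lay far from the wild-type libraries, with the lowest U1 value 4.31 to 5.07 times the highest wild-type value.

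The members most abundant in U1 had ratios from 2.10 (AKAW_10935) to 3.13 (AKAW_06321), on both sides of the group median of 2.56. These ratios were smaller than those of the tags above, which were picked for the largest ratios. AKAW_06404 was the highest in U1, at 1218, 1039 and 1079 CPM, from 399.9, 494 and 488 CPM in the wild type. Its means were 461 ± 52.9 and 1112 ± 94.0 CPM (SD, n = 3 each), a ratio of 2.41, and it moved from rank 376 to rank 88 among all tags. AKAW_10935 went from 544, 495 and 512 CPM to 1054, 1092 and 1107 CPM, a ratio of 2.10, and reached rank 95. These were the 2 members above 1000 CPM in U1. The U1 libraries of AKAW_10935 stood close together, with a CV of 2.53%, while those of AKAW_06404 ran from 1039 to 1218 CPM.

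AKAW_09430 stood at 245, 241 and 263 CPM in the wild type and at 735, 806 and 799 CPM in U1, a ratio of 3.12. AKAW_06321 stood at 151, 144 and 158 CPM and at 446, 484 and 484 CPM, a ratio of 3.13. This was the highest ratio of any member with a wild-type mean of 100 CPM or more. AKAW_01701 stood at 162, 158 and 148 CPM and at 442, 467 and 399 CPM, a ratio of 2.80. The 6 most abundant members, which include AKAW_10934 described below, held 28.2% to 29.6% of the summed level of the 157 tags in the wild-type libraries and 26.4% to 28.4% in U1.

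**Figure D2:**
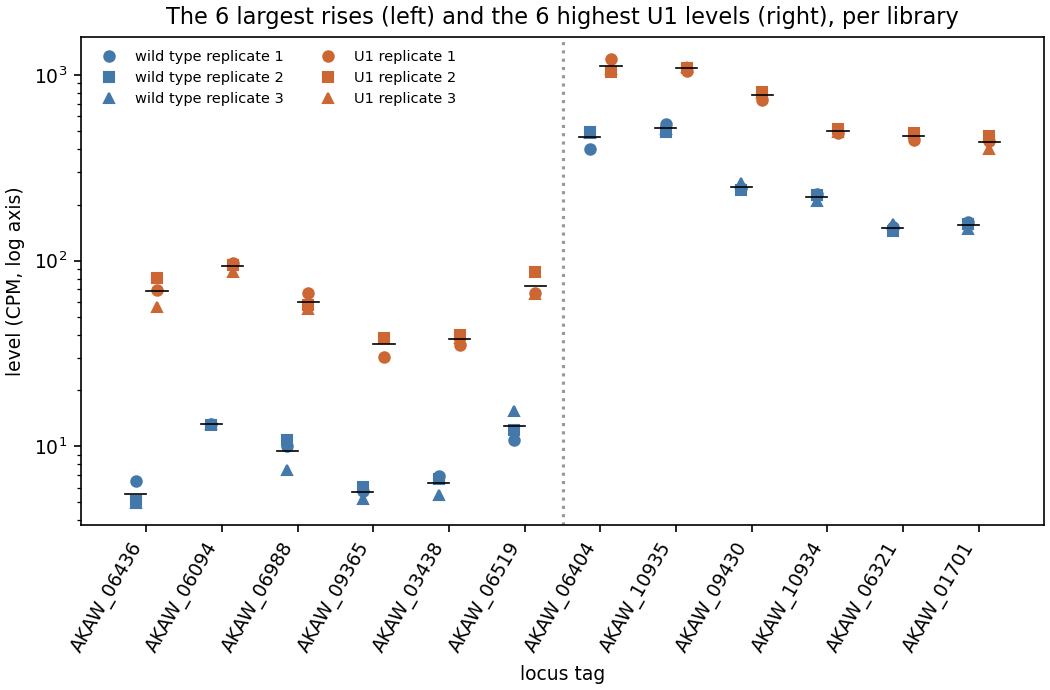
Level in CPM, on a log axis, of 12 members in each library, with wild-type libraries in blue, U1 libraries in orange, 1 marker shape per replicate number and a short line at each mean of 3 libraries. The 6 tags with the largest ratios, on the left, start at 5.52 to 13.1 CPM, whereas the 6 with the highest U1 level, on the right, start at 151 to 517 CPM.

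Summed over the 157 members, the level was 6146, 6052 and 6012 CPM in wild-type replicates 1 to 3 and 15421, 16217 and 16511 CPM in U1 replicates 1 to 3. The members thus took 0.607% ± 0.00688 of all counts of a wild-type library and 1.60% ± 0.0564 of those of a U1 library (SD, n = 3 each), 2.64 times as much. The wild-type libraries were nearly equal, and U1 replicate 1 was the lowest of the U1 libraries.

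The values at the limits of the rule were continuous with those outside. The member with the lowest ratio, AKAW_09026, had a ratio of 2.0001, with U1 libraries at 9.98, 14.6 and 22.6 CPM over wild-type libraries at 8.29, 8.33 and 6.96 CPM. AKAW_08832, the next lowest, had a ratio of 2.001, with wild-type libraries at 6.91, 7.17 and 10.4 CPM and U1 libraries at 17.6, 14.8 and 16.7 CPM. Just outside, AKAW_03397 and AKAW_08792 had ratios of 1.998 each. At the other limit, AKAW_09895 and AKAW_05875 had wild-type means of 5.05 CPM each, while AKAW_10142 and AKAW_04698, just outside, had 4.91 and 4.87 CPM and ratios of 3.57 and 2.38. AKAW_05607, AKAW_06549 and AKAW_10297 met both limits and were left out for overlapping libraries. In each of these 3 tags U1 replicate 3 was the highest library, for example at 31.6 CPM against 7.13 and 12.2 CPM in U1 replicates 1 and 2 for AKAW_10297.

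The rule used all 6 libraries, so the size of the difference was also read in libraries that a choice had not used. The rule was applied to 2 wild-type and 2 U1 libraries, and the ratio was then taken between the U1 and the wild-type library left out, for each of the 9 pairs. The rule took 144 to 192 tags, of which 131 to 151 were among the 157. Their median ratio was 2.47 to 2.58 in the libraries used to choose and 2.19 to 2.69 in the libraries left out. All expressed tags had a median ratio of 1.01 to 1.07 in the same left-out libraries. Between 57.3% and 83.1% of the tags taken again had a ratio of at least 2, against 1.83% to 3.31% of all expressed tags. Between 94.8% and 100% had a ratio above 1. These are values for 1 library of each strain, with no test.

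The left-out values depended on which U1 library was left out. With U1 replicate 1 left out, the median ratio in the left-out pair was 2.19, 2.30 and 2.26, and 10, 1 and 7 tags had a ratio of at most 1. With U1 replicate 2 it was 2.42, 2.69 and 2.61, and with U1 replicate 3 it was 2.66, 2.59 and 2.67. With either of these libraries left out, at most 1 tag had a ratio of at most 1. The same difference was visible in the full group. Of the 157 members, 122 stood at 2 times the wild-type mean or more in U1 replicate 1, 147 in replicate 2 and 141 in replicate 3, and 106 did so in every U1 library. U1 replicate 1 was the lowest U1 library in 45.2% of the members and in 44.0% of all expressed tags. Being lowest this often was thus not particular to the members. The median ratio of U1 replicate 1 to the U1 mean was 0.959 in the members and 0.979 in all expressed tags.

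**Figure D3:**
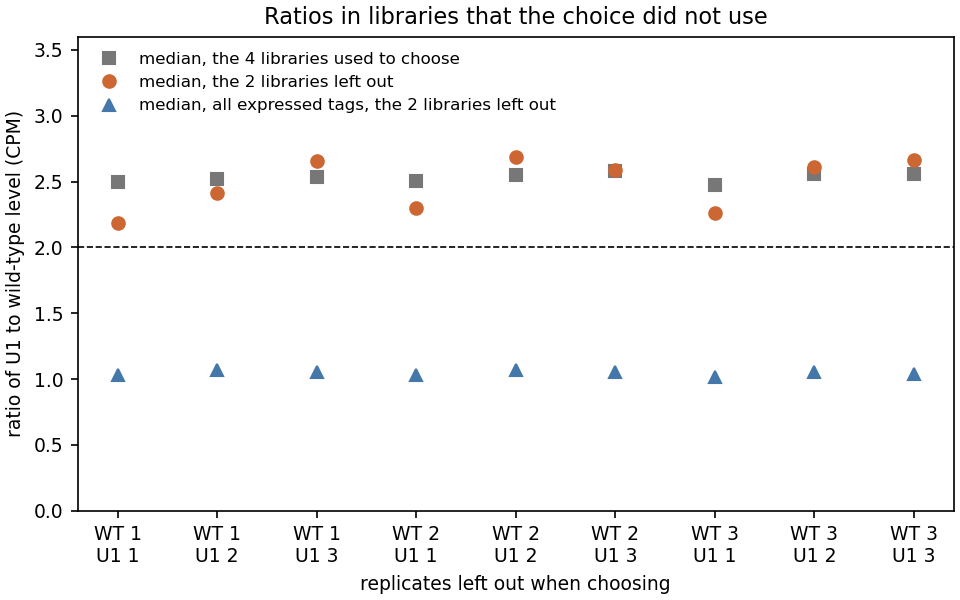
Median ratio of U1 to wild-type level for tags chosen on 4 libraries, in the libraries used to choose (grey squares) and in the 2 libraries left out (orange circles), with the median of all expressed tags in the left-out libraries (blue triangles). Each position on the horizontal axis is 1 of 9 left-out pairs; the orange values lie between 2.19 and 2.69, lowest where U1 replicate 1 was left out.

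A small set of members varied widely between the U1 libraries. The CV over the U1 libraries had a median of 11.4% over the 157 members, against 8.40% over all expressed tags. The median level of all expressed tags was higher than that of the members in the wild type, at 52.1 against 15.7 CPM. In U1 the 2 were close, at 55.0 against 49.3 CPM. In bands of wild-type level the median CV was 17.3% for members and 15.9% for all tags from 5 to under 10 CPM. It was 11.8% for both from 10 to under 20 CPM, and 7.47% and 6.52% at 100 CPM or more. Members stood at least 2 times higher in U1 by the rule, so these bands do not match them for U1 level. The CV at like U1 level was not compared. The median CV was 10.3% over the 284 tags with a ratio of 1.5 to under 2, and 14.6% over the 185 tags at least 2 times lower in U1. The CV was above 30% in 13 members, 8.28% of the group, and in 1.73% of the other expressed tags. These shares were not matched for level: 57 of the 157 members but 762 of the 7852 expressed tags lay at 5 to under 10 CPM. In 12 of these 13 members the highest library was U1 replicate 3, and in 11 of them replicate 2 also stood above replicate 1. Among the other expressed tags with a CV above 30%, 60.9% were highest in U1 replicate 3. A single high library raises the U1 mean that the rule reads, so tags of this kind are favoured by the choice. Without U1 replicate 3, 4 of the 13 widely varying tags and 133 of the other 144 members still met the rule. Without U1 replicate 1, 13 of the 13 still met it. The 13 were picked for their spread, so these counts were largely set by that choice.

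AKAW_03267 had the widest spread, at 11.8, 19.5 and 41.8 CPM in U1 replicates 1 to 3 over 7.31, 5.78 and 8.94 CPM in the wild type. AKAW_00681 followed, at 15.9, 25.7 and 47.4 CPM over 14.8, 10.2 and 10.4 CPM, so that its lowest U1 library was only 1.07 times its highest wild-type library. AKAW_10208 stood at 6.06, 9.48 and 15.4 CPM over 5.33, 5.32 and 4.72 CPM. In all 3 tags U1 replicate 3 stood highest, and U1 replicate 1 lay at only 1.60, 1.35 and 1.18 times the wild-type mean.

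AKAW_04290 was the one abundant tag of this kind, singled out after its values were seen. It stood at 295, 359 and 629 CPM in U1 over 229, 189 and 219 CPM in the wild type. These 4 tags were also the 4 members not called in the fit over all tags. Over the 12 tags highest in replicate 3, chosen for their spread, U1 replicate 3 was 1.497 to 3.55 times U1 replicate 1, with a median of 2.19, while the wild-type CV was 6.82% to 28.3%. The exception was AKAW_01344, at 19.1, 26.3 and 14.2 CPM in U1 replicates 1 to 3, where replicate 2 was highest.

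**Figure D4:**
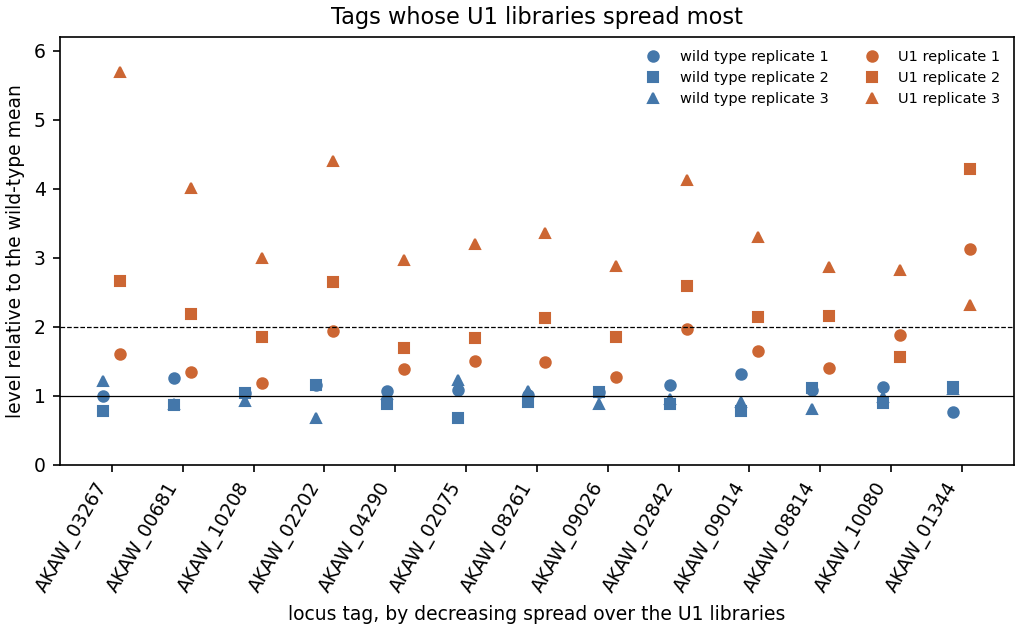
Level relative to the wild-type mean, on a linear axis, of the 13 members with a CV above 30% over the U1 libraries, with wild-type libraries in blue and U1 libraries in orange. U1 replicate 3 (orange triangles) is the highest library in 12 of the 13 tags, at 2.82 to 5.69 times the wild-type mean, whereas U1 replicate 1 (orange circles) lies at 1.18 to 1.97 times in those tags.

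The rule did not use the order of the tag numbers. Members were scattered along it: each block of 1000 tags up to AKAW_11000 held 10 to 20 members, and the median step from one member to the next was 49.5 tag numbers. No 3 members had consecutive numbers. There were 7 adjacent pairs, holding 14 members or 8.92% of the group, while 2.69% of the 7695 other expressed tags stood directly beside a member. With up to 2 other tags allowed in between, 22 members stood in 10 groups of at most 3. Tag numbers were taken as order along the genome without positions to check this, and overlap between neighbouring genes cannot be seen in these files. The pairs below are named because they were found, after their values were seen.

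AKAW_10934 and AKAW_10935 were the most abundant pair. AKAW_10934 went from 228, 225 and 210.2 CPM in the wild type to 489, 508 and 494 CPM in U1, a ratio of 2.25, beside the 2.10 of AKAW_10935. Both had narrow spreads, with a U1 CV of 1.99% and 2.53%. In the edgeR fit, scaled by trimmed-mean factors, the log2 fold change was 1.09 for AKAW_10934 and 0.99 for AKAW_10935. The second thus lay just under a doubling with that scaling.

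The pair with the largest ratios was AKAW_09364 and AKAW_09365. AKAW_09364 went from 8.89, 5.09 and 4.72 CPM to 29.5, 30.8 and 39.5 CPM, a ratio of 5.34. AKAW_09365 went from 5.73, 6.01 and 5.22 CPM to 30.3, 38.3 and 38.4 CPM, a ratio of 6.31. The next tag, AKAW_09366, fell, from 4.78 CPM to 1.44 CPM, at a change of -1.85 ± 0.328 on the log2 scale (SE; adjusted p = 0.000393, edgeR).

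AKAW_05866 and AKAW_05867 differed in level. AKAW_05866 went from 127, 142 and 140.1 CPM to 351, 313 and 329 CPM, a ratio of 2.43. AKAW_05867 went from 7.50, 12.5 and 6.46 CPM to 45.2, 38.9 and 46.1 CPM, a ratio of 4.92. AKAW_08261 and AKAW_08262 shared the pattern of a high U1 replicate 3, at 11.04, 15.7 and 24.8 CPM and at 38.4, 52.2 and 69.3 CPM in U1. In the pair AKAW_09894 and AKAW_09895, AKAW_09894 had this pattern, at 47.9, 65.8 and 84.2 CPM in U1, whereas AKAW_09895 was even, at 17.2, 15.7 and 17.2 CPM. The other pairs, AKAW_02833 with AKAW_02834 and AKAW_04966 with AKAW_04967, reached U1 means of 11.7 to 30.6 CPM, with ratios of 2.02 to 3.70. In the edgeR fit AKAW_02833 had a log2 fold change of 0.97, also just under a doubling.

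Tags directly next to a member, but not in the group themselves, were then counted. Of 244 such tested neighbours, 50 rose (20.5%) and 27 fell (11.1%), against 9.70% and 13.3% of all 8586 tested tags outside the group and the stretch left out (edgeR quasi-likelihood test, adjusted p under 0.05). Their median log2 fold change was 0.09, against 0.00 over those 8586 tags. At 2 steps in tag number 10.3% rose, and from 3 to 10 steps 8.33% to 12.8% rose, close to the share of tags at large. The difference between neighbours and other tags was not tested as such, because tags next to each other are not independent.

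The neighbours that rose did so on both sides of the members, with 23 standing before and 27 after one. They stood beside 44 of the 157 members. With members in pairs counted too, 57 of the 157 members, or 36.3%, had a tag called higher directly beside them, as did 18.3% of the 7695 other expressed tags. The 14 members in pairs enter that count through the rule itself. The median log2 fold change of the 50 was 0.68, and 9 of them rose by at least 1 on the log2 scale. The rule limits these sizes: a neighbour at 5 CPM or more in the wild type, as 37 of the 50 were, would with a member-sized rise have been a member itself. The other 13, under 5 CPM, could not enter the group whatever their ratio.

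AKAW_08331, beside AKAW_08330, rose most among these neighbours. It stood at 2.76, 1.39 and 1.24 CPM in the wild type and at 12.1, 16.8 and 16.9 CPM in U1, a change of 2.93 ± 0.277 on the log2 scale (SE; adjusted p = 3.98e-07, edgeR). AKAW_01639, beside AKAW_01638, stood at 2.17, 5.32 and 4.22 CPM and at 32.4, 24.3 and 27.8 CPM, a change of 2.82 ± 0.230 on the log2 scale (SE; adjusted p = 8.08e-08, edgeR). Both had wild-type means under the minimum, and their U1 libraries lay far above their wild-type libraries. AKAW_06518, beside AKAW_06519, was better expressed, at 24.9, 24.1 and 28.8 CPM and at 40.5, 62.7 and 49.0 CPM, a change of 0.88 ± 0.142 on the log2 scale (SE; adjusted p = 0.000171, edgeR).

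Some neighbours moved the other way. AKAW_10677, beside AKAW_10678, fell from 35.0, 43.5 and 42.2 CPM in the wild type to 7.96, 11.9 and 8.81 CPM in U1, a change of -2.16 ± 0.151 on the log2 scale (SE; adjusted p = 1.12e-08, edgeR). AKAW_09522, beside AKAW_09523, fell from 104.5, 101.3 and 106.6 CPM to 37.2, 37.9 and 30.9 CPM, a change of -1.62 ± 0.0921 on the log2 scale (SE; adjusted p = 8.81e-10, edgeR). In both tags all U1 libraries lay below all wild-type libraries, next to a member in which the reverse held. In all, 27 members had a neighbour that fell.

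**Figure D5:**
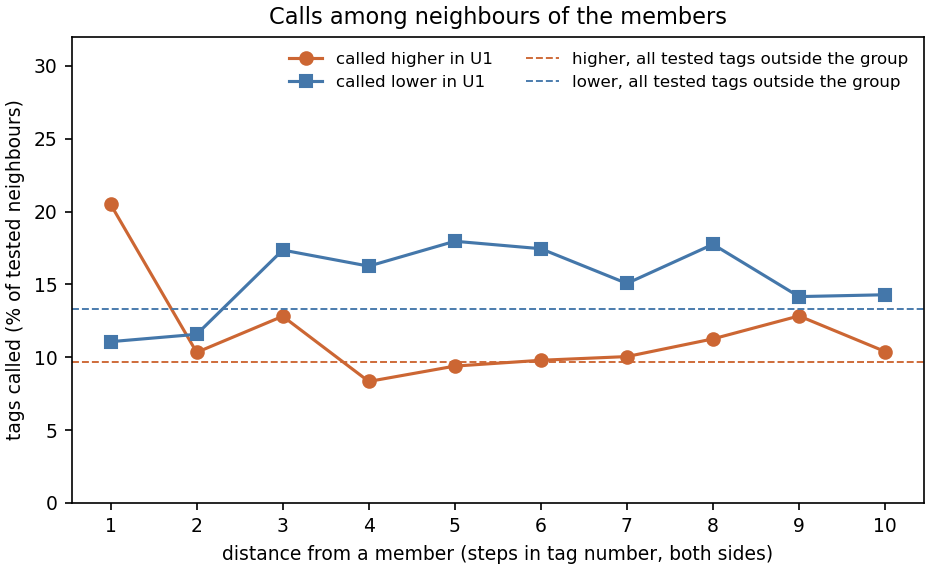
Share of tested tags called higher (orange) or lower (blue) in U1, in percent, at 1 to 10 steps in tag number on either side of a member, members themselves left out. Dashed lines give the shares over all tested tags outside the group and the stretch left out, 9.70% higher and 13.3% lower; the share called higher is 20.5% at 1 step and 8.33% to 12.8% from 2 steps on.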

How the data were processed

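RNA of rice koji was sequenced in 3 wild-type and 3 U1 libraries. The authors deposited raw counts per locus tag, 1 table per library, with no normalization. The submitters' processing notes name Trimmomatic 0.32 and BWA 0.7.12; the counter, genome build, strand setting and treatment of reads with several matches were not given in the sources used here, so counts of near-identical, overlapping or antisense genes are uncertain.

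The members, lists and tests were chosen with earlier results of these data known. CPM was computed on library totals, as mean ± SD over 3 libraries. Strains were compared with edgeR 4.0.16 in R 4.3.3: filterByExpr kept 8790 tags, trimmed-mean (TMM) factors ran from 0.970 to 1.043, and a robust quasi-likelihood fit on strain was tested two-sided with Benjamini-Hochberg adjustment over all tested tags. Standard errors are the size of the log2 fold change over the square root of F. Code was tested on simulated data. All pairs of libraries within a strain differed by more than sampling noise (chi-square per degree of freedom 2.15 to 7.46), so none was treated as a copy of another and each was counted. This cannot show whether they are separate cultures.

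Named tags were the 6 with the largest ratio, the 6 with the highest U1 level, members of runs of at least 3 (there were none), those nearest the limits, and the 3 with the largest U1 CV. Adjacent pairs, neighbours, the other widely varying tags and AKAW_04290 were named after their values were seen. Alternatives were DESeq2 1.42.0, other scalings, filters, limits and thresholds, the replicate number as a block, and leaving out each library.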

Additional observations from a re-analysis of the deposited data

How the results depend on the processing

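With TMM library sizes it took 133 tags, 132 of them among the 157, with DESeq2 size factors 135, without the 10 most abundant tags in the totals 154, and with the median per strain 151, of which 140 were shared. A wild-type minimum of 10 CPM took 100 tags, no minimum 342, a ratio of 1.5 took 441 and a ratio of 4 took 25, as looser and stricter limits give. Leaving out 1 library took 141 tags (without U1 replicate 3) to 180 (without U1 replicate 1). Over all tags 2153 were called, 1416 at an adjusted p under 0.01, and 1625 to 2069 with 1 library left out. Scaling by totals in place of TMM factors raised the share of rises among the calls from 46.5% to 60.6%, and shifted the median log2 change over tested tags from 0.01 to 0.08. In the refits at an adjusted p under 0.05, from 148 to 155 members were called higher and 0 lower, as were 148 and 0 in the original fit at 0.01, the filter of 10 CPM testing 153 of them. With the replicate block 2091 tags and 153 members were called. Same-numbered libraries did not deviate together (r = -0.037, -0.000491 and -0.068), so the numbers were not taken as pairs; held-out ratios over the 3 same-numbered pairs had a median of 2.67, against 2.59 over all 9. The ratio of summed levels was 2.61 to 2.70 with 1 library left out, which says nothing about stability, since the members were chosen on all 6. Members next to a member numbered 14, 22 with up to 2 tags between, and 10 under TMM sizes. Neighbours called higher numbered 50, and 60 with library totals alone (24.6%, against 14.2% of tags at large). For the 30 tags named with refits, 284 of 300 refitted values kept their direction and side of the threshold and the others kept their direction: AKAW_09026 was no longer called in 5 refits with 1 library left out, at adjusted p of 0.0619 to 0.109, and AKAW_03267, AKAW_00681, AKAW_10208 and AKAW_04290 became called in 11 refits. Without U1 replicate 3 the calls came with smaller log2 fold changes, from 1.57 to 0.98 for AKAW_03267, from 1.17 to 0.69 for AKAW_00681 and from 0.93 to 0.55 for AKAW_04290. The replicate block called AKAW_03267 (edgeR adjusted p = 2.06e-05) and AKAW_10208 (edgeR adjusted p = 0.0168). The cause was not tested. Among members with a U1 CV above 30%, an alternative chosen after seeing the data, TMM sizes gave 12 tags, all highest in U1 replicate 3. Depth limits the low members most: those at 5 CPM had as few as 16 reads in a library.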
